A study of Homo sapiens with 24 samples.

Results

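The 2 docetaxel-resistant prostate cancer sublines DU145DR and 22Rv1DR were compared in their control samples, across every autosomal gene in the expression table. The members are the 4 control samples of each line, 8 of the 24 samples of the series. They come from 4 of its 12 RNA-seq libraries, because each library was read on 2 lanes and deposited as 2 samples. The other 16 samples received siRNA against POM121 and entered no comparison here. DU145DR control comprises libraries 1A and 2A, and 22Rv1DR control comprises libraries 4A and 5A. Both sublines were raised from lines bought from ATCC, DU145 and 22Rv1, which the labels call aggressive in their derived form, and both were grown in RPMI medium with FBS. The labels give the control arm of both lines as Control, without saying what the cells received. They do not say that the libraries of a line came from separate cultures, so p-values measure only the spread between 2 libraries a line, which may be technical. Each subline is 1 derivative of 1 tumour line, and untreated parental cells were not analysed here, so a difference described below is one between lines. It cannot be told apart from any difference that came with resistance.

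DU145 was established from a brain metastasis of prostate cancer and is known as a line that does not respond to androgen. 22Rv1 was derived from a xenograft and is known as a line with luminal features. Luminal prostate cells are shaped by FOXA1 and HOXB13, transcription factors that open and read the regulatory DNA of prostate genes. Epithelial and mesenchymal states are set against each other by repressors such as ZEB1, which silence junction genes. Docetaxel binds tubulin in microtubules, and the efflux pump encoded by ABCB1 is a known route of resistance to it.

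Levels are given in FPKM, fragments scaled to transcript length and to all mapped fragments, a scale on which genes can be compared per length. The table lists every value of 1 FPKM or less as 0, called the floor here. A library value is the mean of its 2 lanes on the log2 scale, and where a pair of values is given they are the 2 libraries of a line. Differences are log2 values of 22Rv1DR minus DU145DR with their standard error (SE), tested with limma on 2 against 2 libraries and adjusted by Benjamini-Hochberg. For a gene listed at 0 in one line no fold is given. In the test a listed 0 counted as 1 FPKM. A line at 0 throughout thus had no spread between its libraries, and the spread of such a gene came from the other line alone. Where the true level was lower than 1 FPKM, the difference is understated. Of 12508 autosomal symbols tested, 88.2% passed an adjusted p of 0.05, with 5330 higher in 22Rv1DR (42.6%) and 5708 higher in DU145DR (45.6%). Because so many passed, counts below use a stricter call that also asks for a 2-fold difference. It was met by 38.3% of symbols, 2400 higher in 22Rv1DR (19.2%) and 2390 higher in DU145DR (19.1%). "At least 2-fold" below means this call, and these 2 shares are the background for every list. The even split includes symbols with samples listed at 0. Among the 10147 symbols above the floor in all 8 samples, 1389 were at least 2-fold higher in 22Rv1DR and 1752 in DU145DR.

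The lines differed far more than their libraries did. Over 10147 autosomal symbols above the floor in all 8 samples, the median absolute log2 difference was 0.05 to 0.06 between lanes of a library and 0.06 between libraries of a line. It was 0.64 between any library of one line and any library of the other. Each sample had 11331 to 11359 autosomal symbols above the floor in DU145DR and 11862 to 11896 in 22Rv1DR. Sequencing depth is unknown. Library 5A was read on lanes 3 and 4 and the other 3 on lanes 1 and 2, and without 5A the stricter call was met by 2272 and 2293 symbols. Unpolyadenylated ribosomal RNA, which poly(A) selection should remove, varied between libraries of a line: the symbol RNA5-8S5 stood at 470.5 and 1653 FPKM in DU145DR and at 1288 and 4154 FPKM in 22Rv1DR, and its part in other values was not tested.

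In all, 1190 tested symbols were above the floor in all 4 samples of 22Rv1DR and listed at 0 in all 4 of DU145DR, and 724 the other way round. A listed 0 can also be an estimate that was not made: 35 genes in DU145DR and 20 in 22Rv1DR had a sample at 0 and another sample of the same line at a log2 value of 3 or more. Of the symbols above, 87.4% of the first set were also at 0 in all 8 siPOM121 samples of DU145DR, and 88.5% of the second in all 8 of 22Rv1DR. Among 85 such genes that the rule in the methods names, 3 were above the floor in a siPOM121 sample of the other line: HSPB6, DHRS2 and SPINT1.

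**Figure D1:**
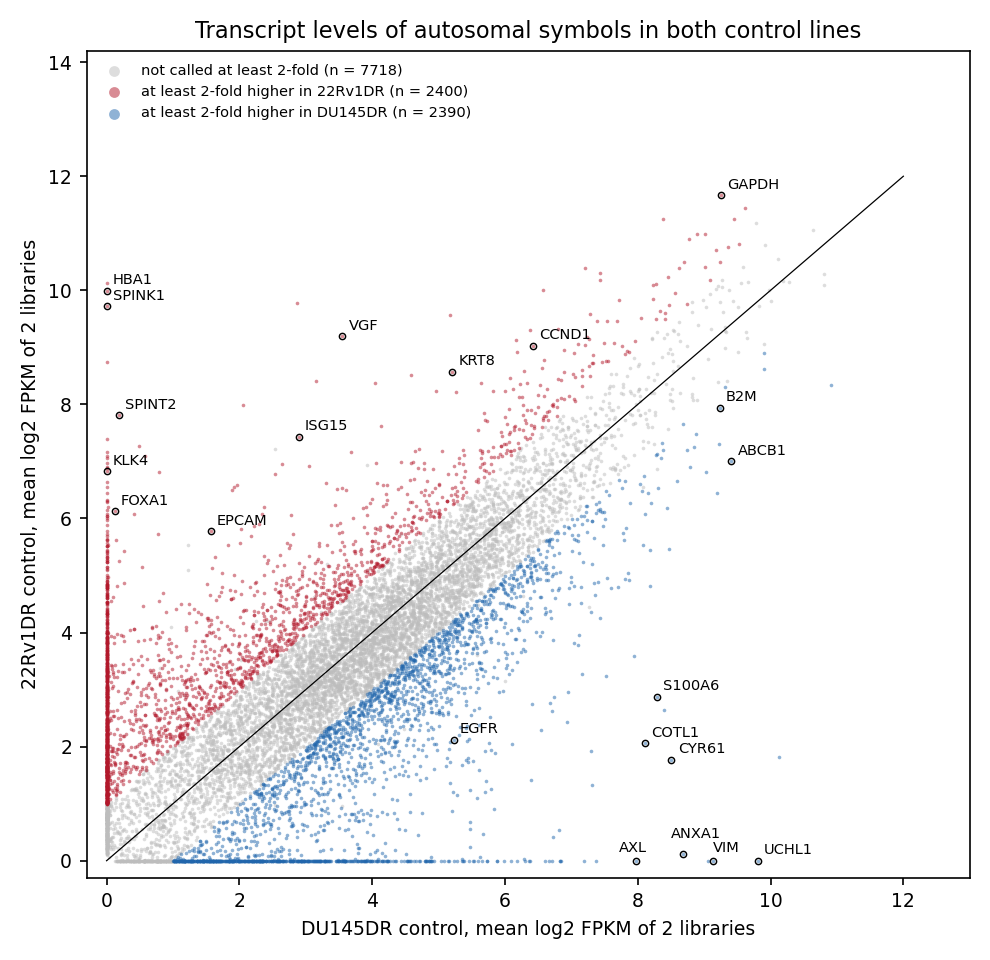
Mean log2 FPKM of 2 control libraries in DU145DR (x axis) against 22Rv1DR (y axis) for 12508 autosomal symbols. Points on the left edge are listed at 0 in DU145DR, and points on the lower edge at 0 in 22Rv1DR. The diagonal marks equal levels. Red points (2400) and blue points (2390) were called at least 2-fold higher in 22Rv1DR and in DU145DR; SPINK1 and HBA1 lie at the top of the left edge, and UCHL1, VIM and AXL at the right of the lower edge.

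The most abundant transcripts found in 22Rv1DR and listed at 0 in DU145DR encoded alpha globins, secreted proteins and stress proteins. HBA1 stood at 1001, 1019, 1020 and 1036 FPKM and HBA2 at 1106, 1117, 1108 and 1134 FPKM in the 4 samples of 22Rv1DR. The alpha globin genes are nearly identical, so reads could be split between them and neither value is certain alone. SPINK1, a secreted trypsin inhibitor, stood at 868, 845, 836 and 843 FPKM. All 3 genes were at 0 in every DU145DR sample, and their 22Rv1DR samples lay within a narrow range. HSPB6, a small heat shock protein, reached 424 and 436 FPKM. DHRS2, a dehydrogenase, reached 169 and 165 FPKM, and TXNIP, an inhibitor of thioredoxin, reached 145 and 142 FPKM. Below these came the mitochondrial creatine kinases CKMT1A and CKMT1B, which are near-identical copies, the proteoglycan SPOCK2 (123 and 127 FPKM), the cytokine GDF15 (117 and 119 FPKM), the kallikrein KLK4 (111 and 117 FPKM), the receptor partner RAMP1 (95.1 and 105 FPKM), the tight junction protein CLDN7 (91.7 and 96.6 FPKM) and the retinaldehyde dehydrogenase ALDH1A1 (87.7 and 86.4 FPKM).

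Among genes above the floor in both lines, the steepest differences towards 22Rv1DR included those of PEG10, AP1M2 and VGF. PEG10, an imprinted gene derived from a retrotransposon, stood at 1.39 and 1.42 FPKM in DU145DR and 154 and 155 FPKM in 22Rv1DR, a log2 difference of 6.78 ± 0.04 (SE, adjusted p = 4.63e-08). AP1M2, an adaptor subunit of epithelial protein sorting, stood at 1.82 and 1.64 against 110.7 and 115.6 FPKM (6.03 ± 0.06). The groups did not overlap for PEG10 or AP1M2. VGF, a secreted neuropeptide precursor, stood at 11.98 and 11.48 against 584 and 593 FPKM. PGAM2, the muscle form of phosphoglycerate mutase, stood at 9.60 and 8.24 against 339 and 344 FPKM. RGS2, a brake on G protein signalling, stood at 4.05 and 3.74 against 99.9 and 92.0 FPKM. The matrix protein SMOC1, the glutathione transferase GSTO2, the scaffold MAPK8IP2, the NAD synthesis enzyme NMNAT2, the complement factor CFD, the regulator GCHFR and the glycosyltransferase GYLTL1B had log2 differences of 5.66, 5.18, 4.94, 4.66, 4.62, 4.63 and 4.61.

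Among the most abundant transcripts found in DU145DR and listed at 0 in 22Rv1DR were VIM, UCHL1 and AXL. VIM, the intermediate filament of mesenchymal cells, stood at 576, 563, 554 and 552 FPKM in its 4 samples, and UCHL1, a ubiquitin hydrolase first known from neurons, at 839, 912, 911 and 922 FPKM. The receptor tyrosine kinase AXL stood at 252, 254, 244 and 250 FPKM. None of these 3 was above the floor in any 22Rv1DR sample. GSTP1, a glutathione transferase whose promoter is methylated in most prostate cancers, stood at 167 and 166 FPKM against 0. ANXA2 stood at 140 and 153 FPKM against 0, and its processed copy ANXA2P2 at 537 and 529 FPKM, so the division of reads between them is uncertain. The crosslinking enzyme TGM2 (118 and 110 FPKM), the hyaluronan receptor CD44 (111 and 115 FPKM), FXYD5, a subunit of the sodium pump (106 and 103 FPKM), and the AP-1 factor FOSL1 (102 and 102 FPKM) were likewise at 0 in 22Rv1DR. So were TM4SF1, EFEMP1, RAB34 and GRAMD1B, at means of 97.4, 83.0, 82.5 and 78.5 FPKM.

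Of genes above the floor in both lines, CYR61, a matrix protein secreted in response to stretch and YAP, was highest against 22Rv1DR. Its samples stood at 364, 368, 365 and 360 FPKM in DU145DR and at 3.27, 4.34, 3.11 and 3.10 FPKM in 22Rv1DR, a log2 difference of -6.73 ± 0.09 (SE, adjusted p = 2.23e-07). EMP3, a membrane protein, stood at 104 and 107 against 1.52 and 1.18 FPKM, and MYOF, which repairs membranes, at 113 and 113 against 1.64 and 1.28 FPKM. COTL1, an actin-binding protein, stood at 282 and 272 against 4.00 and 4.39 FPKM. ANTXR1, a collagen receptor, stood at 158 and 160 against 2.46 and 2.55 FPKM. PFKP, the platelet form of phosphofructokinase, stood at 351 and 325 against 6.08 and 6.39 FPKM, in the direction opposite to PGAM2 of the same pathway. JAK1, the kinase that transmits cytokine and interferon signals, stood at 44.6 and 44.6 against 1.53 and 1.42 FPKM (-4.92 ± 0.05, adjusted p = 1.23e-07). NME4, PHF19 and LITAF had log2 differences of -5.37, -4.97 and -4.54.

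The labelled identity of both lines was set beside 8 markers each. These were planned together with the gene lists, when earlier results of these data were known. The counts are thus a description and no independent check of identity. All 8 DU145 markers (VIM, AXL, CAV1, EGFR, ANXA1, ITGB4, CD44 and TGFBI) were at least 2-fold higher in DU145DR. Of the 8 markers of 22Rv1, 7 were higher in 22Rv1DR and 5 of them at least 2-fold. KLK3, which encodes prostate-specific antigen, was close to the floor even in 22Rv1DR, with samples at 2.44, 2.04, 1.84 and 1.63 FPKM, and its call was lost without 1A or without 2A (largest adjusted p = 0.105). SLC45A3 did not differ by the test, at 4.24 and 4.05 against 4.46 and 4.36 FPKM (0.09 ± 0.05, adjusted p = 0.168). POM121, the gene targeted in the other arms, stood at 21.6 and 21.3 against 38.5 and 37.8 FPKM (0.83 ± 0.04, adjusted p = 8.02e-06).

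**Figure D2:**
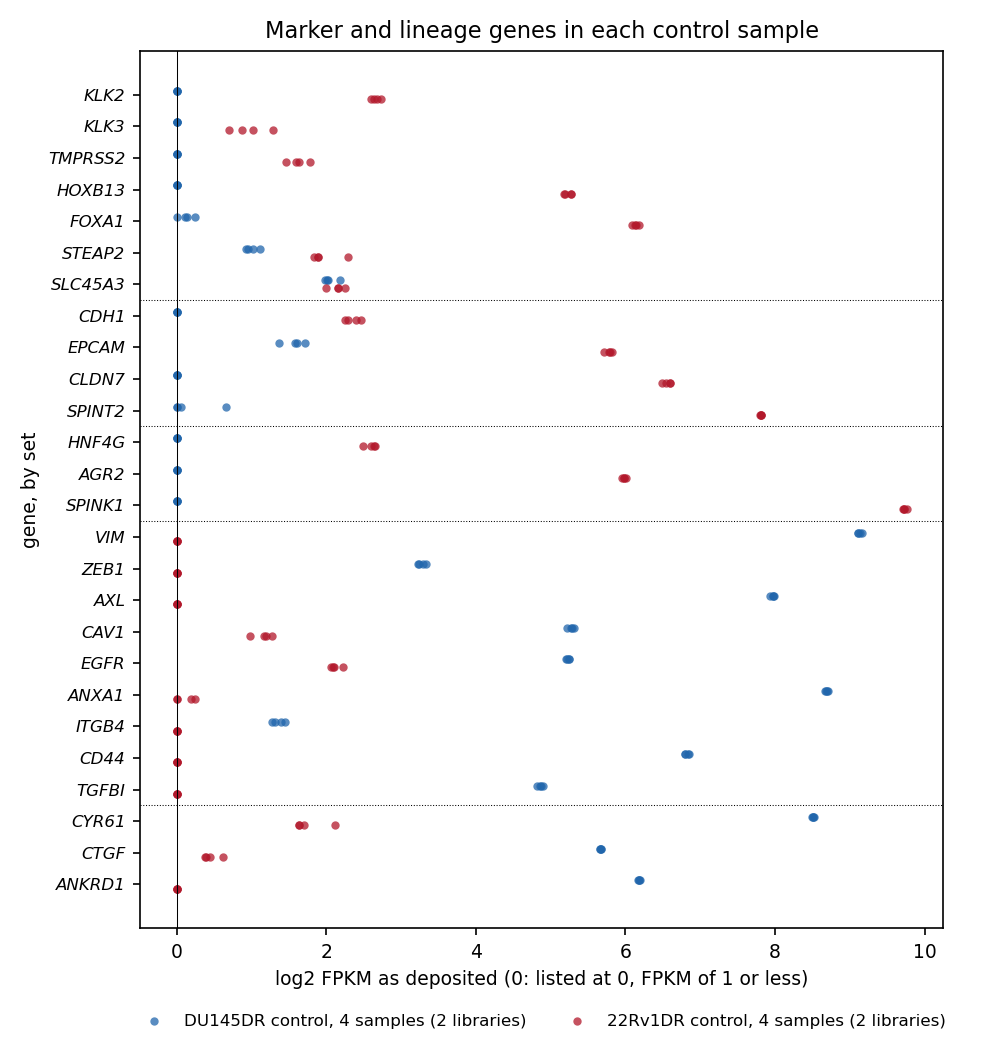
Deposited log2 FPKM of 26 genes in the 4 DU145DR (blue) and 4 22Rv1DR (red) control samples, with dotted lines between luminal prostate, epithelial, gastrointestinal, mesenchymal or DU145 and YAP target sets. The colours overlap for SLC45A3, and SPINK1 lies far to the right in 22Rv1DR while KLK3 lies near 0.

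Androgen-regulated and luminal genes were mostly higher in 22Rv1DR, but not as a block. Of 39 listed genes 32 were tested, of which 15 were at least 2-fold higher in 22Rv1DR and 4 in DU145DR, with a median log2 difference of 0.97 against -0.04 over all autosomal symbols tested. KLK2 stood at 6.53 and 6.13 FPKM, TMPRSS2 at 3.27 and 2.88 FPKM, KLK15 at 4.00 and 4.60 FPKM and FOLH1, the prostate-specific membrane antigen, at 11.3 and 10.8 FPKM, all listed at 0 in DU145DR. The kallikrein KLK4, given above, was thus the highest of these 4 kallikreins and KLK3 the lowest. ZBTB10 stood at 8.01 and 8.50 against 124 and 118 FPKM, and C1orf116 at 0 against 14.4 and 14.8 FPKM. FKBP5, a chaperone partner induced by steroid receptors, was above 26 FPKM in both lines, with 26.8 and 27.4 against 39.9 and 39.3 FPKM. PMEPA1 (7.96 and 7.33 FPKM against 0), ALDH1A3 (4.67 and 4.43 FPKM against 0) and the pump gene ABCC4 (14.8 and 14.9 against 3.53 and 3.48 FPKM) ran the other way. SORD, which is also on the list, did not pass the test, with a log2 difference of 0.07, but did with quantile normalization and with median centring.

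The transcription factors of prostate and luminal epithelium were mostly higher in 22Rv1DR. Of 32 factors 22 were tested, 16 at least 2-fold higher in 22Rv1DR and 3 in DU145DR, with a median of 2.15. FOXA1 was at 1.09 and 1.09 FPKM in DU145DR, with 1 or more samples at the floor, and 71.5 and 68.8 FPKM in 22Rv1DR. HOXB13 was at 0 against 36.3 and 38.8 FPKM, GATA3 at 0 against 17.6 and 16.4 FPKM, and ELF3, an epithelial ETS factor, at 0 against 49.8 and 48.7 FPKM. GATA2 was shared by both lines, at 21.2 and 19.9 against 52.8 and 54.3 FPKM. The stem cell factor SOX2 (5.17 and 4.64 FPKM), ETV1 (10.3 and 9.86 FPKM) and ID4 (4.21 and 3.83 FPKM) were listed at 0 in DU145DR. SOX4 stood at 1.99 and 2.15 against 21.4 and 21.4 FPKM, and TBX3 at 3.14 and 3.11 against 23.9 and 23.4 FPKM. NR3C1, the glucocorticoid receptor, was one of the 3 factors higher in DU145DR, at 14.7 and 14.6 against 3.85 and 3.90 FPKM (-1.92 ± 0.04, adjusted p = 8.46e-07).

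A set of gut and liver genes was active in 22Rv1DR. Of 39 such genes in the table, 18 were at the floor in all 8 samples and 18 were tested, of which 14 were at least 2-fold higher in 22Rv1DR and 1 in DU145DR. The nuclear receptor HNF4G stood at 6.17 and 5.92 FPKM in 22Rv1DR. HNF4A was at 0 in all 8 samples. Products of gut epithelium beside SPINK1 were AGR2, an endoplasmic reticulum isomerase (63.8 and 62.6 FPKM), the membrane mucin MUC13 (46.5 and 45.6 FPKM), the tetraspanin TSPAN8 (42.6 and 43.5 FPKM), LGALS4 (5.62 and 6.35 FPKM), CDH17 (4.29 and 4.13 FPKM) and VIL1 (3.38 and 3.61 FPKM). The plasma proteins ALB (28.0 and 27.2 FPKM) and APOA1 (24.5 and 27.0 FPKM) were also present. Each was listed at 0 in every DU145DR sample.

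Homeobox genes of the HOX clusters, which carry positional identity, differed in both directions. Of 39 genes, 26 were tested, 13 at least 2-fold higher in 22Rv1DR and 3 in DU145DR, with a median of 1.08. Without 2A the second count was 1. HOXA9 stood at 0 against 14.83 and 15.04 FPKM, HOXC6 at 2.03 and 1.57 against 17.0 and 15.1 FPKM and HOXA10 at 7.54 and 8.28 against 23.2 and 22.3 FPKM. HOXB9 was higher in DU145DR, at 9.35 and 9.03 against 3.49 and 2.75 FPKM, although its adjusted p was up to 0.0535 without 1A or without 2A. HOXC5 was at 3.10 and 3.44 FPKM against 0. HOXC9 did not pass the test, with a log2 difference of 0.08. The cluster ends ran opposite: HOXB13 was seen in 22Rv1DR alone, whereas HOXA13 stood at 3.01 and 2.87 FPKM in DU145DR and 1.53 and 1.61 FPKM in 22Rv1DR.

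Epithelial junction and luminal keratin genes were higher in 22Rv1DR. Of 43 genes 38 were tested, 24 at least 2-fold higher in 22Rv1DR and 4 in DU145DR, with a median of 2.12. CDH1, the E-cadherin of adherens junctions, was at 0 in DU145DR and at 5.13 and 5.08 FPKM in 22Rv1DR. EPCAM, an epithelial adhesion protein, stood at 2.99, 2.59, 3.05 and 3.27 FPKM against 55.0, 56.7, 52.5 and 55.3 FPKM (4.21 ± 0.07, adjusted p = 3.64e-07). The protease inhibitor SPINT2 stood at 1.26 and 1.02 against 224 and 225 FPKM, and its relative SPINT1 at 0 against 67.0 and 68.1 FPKM. Their target proteases ST14 and PRSS8 were at 0 against means of 39.8 and 20.5 FPKM. JUP, or plakoglobin, was at 0 against 69.1 and 72.1 FPKM, CLDN4 near the floor against 45.1 and 48.0 FPKM, TJP3 at 0 against 27.6 and 27.7 FPKM, and the polarity gene CRB3 at 0 against 38.2 and 39.4 FPKM. The splicing factors ESRP1 and ESRP2, which set epithelial isoforms, were at 0 against means of 22.8 and 19.6 FPKM. The keratins KRT8 and KRT18 were present in both lines and at least 2-fold higher in 22Rv1DR. KRT8 stood at 38.1 and 35.8 against 380 and 383 FPKM and KRT18 at 81.4 and 76.2 against 213 and 210 FPKM. KRT80 ran the other way, at 49.9 and 47.0 FPKM against 0, and LSR did not pass the test (47.1 and 47.0 against 45.0 and 46.0 FPKM).

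ZEB1 and SNAI2 are known to read the E-box CAGGTG, so the 250 bases before the start of 2 genes that were high in 22Rv1DR are shown, from RefSeq on GRCh38.p14. CRB3 lies at chr19:6464021-6464270 on the plus strand and AP1M2 at chr19:10587313-10587562 on the minus strand. Capitals mark CAGGTG or its reverse complement CACCTG. The windows are written 5′ to 3′ on the gene's strand.
CRB3: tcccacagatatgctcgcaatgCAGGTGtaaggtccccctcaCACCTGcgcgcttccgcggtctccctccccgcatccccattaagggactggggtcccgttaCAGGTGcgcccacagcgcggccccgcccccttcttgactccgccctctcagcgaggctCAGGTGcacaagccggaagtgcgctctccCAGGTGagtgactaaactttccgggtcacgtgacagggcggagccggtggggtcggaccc
AP1M2: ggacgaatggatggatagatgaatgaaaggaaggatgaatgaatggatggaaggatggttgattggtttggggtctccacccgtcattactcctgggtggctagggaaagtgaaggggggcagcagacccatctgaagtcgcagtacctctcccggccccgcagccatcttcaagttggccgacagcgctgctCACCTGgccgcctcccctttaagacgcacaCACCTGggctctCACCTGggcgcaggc
CRB3 holds 5 matches and AP1M2 holds 3. The letters occur on either strand in 17.5% of 35116 RefSeq windows of this length, and in at least 1 window of 11 of the 23 epithelial genes with a window, against 20.6% of 27305 genes. A match of letters is a description and was not tested as a binding site.

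The mesenchymal side was higher in DU145DR for most genes, with several exceptions. Of 41 genes 31 were tested, 21 at least 2-fold higher in DU145DR and 8 in 22Rv1DR, with a median of -1.72. Among the repressors, ZEB1 stood at 9.62 and 9.68 FPKM and SNAI2 at 4.90 and 5.02 FPKM against 0. SNAI1 was present in both lines, at 4.56 and 4.54 against 3.03 and 3.79 FPKM, and its call was lost without 1A or without 2A and with median centring (largest adjusted p = 0.254). The TWIST factors were exchanged: TWIST2 stood at 7.57 and 6.44 FPKM in DU145DR and 0 in 22Rv1DR, and TWIST1 at 0 in DU145DR and at 12.9, 12.4, 10.6 and 13.2 FPKM in 22Rv1DR. Of matrix genes, COL4A1 (46.3 and 45.0 FPKM against 0), COL4A2 (46.0 and 43.2 against 1.18 and 1.19 FPKM), TGFBI (29.16 and 29.03 FPKM against 0) and LOXL2 (96.2 and 89.6 against 5.10 and 4.66 FPKM) were higher in DU145DR. FN1, or fibronectin (9.58 and 10.0 FPKM), CDH2, or N-cadherin (2.58 and 2.42 FPKM), and COL1A1 (8.24 and 8.47 FPKM) were higher in 22Rv1DR, and the first 2 were at 0 in DU145DR.

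Basal epithelial genes were represented by attachment proteins rather than basal keratins. Of 26 genes 13 were at the floor in all 8 samples, among them KRT5, KRT14 and TP63. Of the 13 tested, 8 were at least 2-fold higher in DU145DR and 0 in 22Rv1DR, with 3 others higher in 22Rv1DR by less than 2-fold. ITGA6 stood at 22.7 and 23.4 FPKM against 0, its partner ITGB4 at 2.68 and 2.45 FPKM against 0, PLEC, which ties hemidesmosomes to keratin, at 68.3 and 62.1 against 12.4 and 12.2 FPKM, and DST at 17.9 and 18.1 against 4.50 and 4.23 FPKM. Among integrin subunits, 11 of 24 were tested, 6 at least 2-fold higher in DU145DR and 1 in 22Rv1DR, with a median of -1.12. ITGB1, the common beta subunit, stood at 285 and 299 against 44.1 and 42.9 FPKM (-2.75 ± 0.04, adjusted p = 2.54e-07). ITGA1 was at or near the floor against 5.72 and 5.34 FPKM, a call that was lost with log2(FPKM + 0.1) (adjusted p = 0.145), and ITGA3 was higher in 22Rv1DR by less than 2-fold (0.42, adjusted p = 0.000501). Annexins and S100 proteins, which bind calcium at membranes, had 18 of 28 tested, 11 at least 2-fold higher in DU145DR and 2 in 22Rv1DR, with a median of -1.67. ANXA1 stood at 412, 405, 420 and 413 FPKM against 1.19, 1.14, 0 and 0 FPKM, and S100A6 at 307 and 316 against 7.25 and 7.45 FPKM. S100P was at 0 against 6.93 and 7.99 FPKM, and S100A13 did not pass the test (64.5 and 73.9 against 67.2 and 69.5 FPKM).

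The YAP and TEAD pathway had the lowest median of the 28 lists. YAP1 and its relative WWTR1, or TAZ, are co-activators that enter the nucleus in spread cells and work through TEAD factors bound to GGAATG. All 26 listed genes were tested, 19 were at least 2-fold higher in DU145DR and 0 in 22Rv1DR, and the median was -2.81. Another 2 were higher in 22Rv1DR by less than 2-fold. The list was chosen with earlier results of these data known, so the counts hold for the listed genes only. YAP1 stood at 46.2 and 47.3 against 13.8 and 14.3 FPKM, WWTR1 at 29.1 and 30.7 against 4.34 and 4.52 FPKM and TEAD1 at 42.7 and 43.4 against 4.26 and 4.26 FPKM. TEAD4 was the other way, at 11.4 and 10.6 against 16.9 and 17.6 FPKM, with a call that was lost without 4A or without 5A (largest adjusted p = 0.0549). Of targets other than CYR61, CTGF stood at 50.7 and 51.1 against 1.31 and 1.45 FPKM, ANKRD1 at 72.9 and 72.5 FPKM against 0, AMOTL2 at 58.6 and 55.3 against 1.90 and 1.84 FPKM, CRIM1 at 184 and 182 against 9.78 and 9.18 FPKM, and IGFBP3 at 284 and 295 against 28.1 and 28.2 FPKM. The pathway's inhibitory kinase LATS2, itself a target, stood at 16.4 and 16.3 against 2.16 and 2.32 FPKM.

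The upstream sequences of CTGF and ANKRD1 are shown because both are reference targets of TEAD factors. They span chr6:131951373-131951622 and chr10:90921088-90921337 on GRCh38.p14 (RefSeq), both on the minus strand and written 5′ to 3′. Capitals mark GGAATG, which was searched on both strands.
CTGF: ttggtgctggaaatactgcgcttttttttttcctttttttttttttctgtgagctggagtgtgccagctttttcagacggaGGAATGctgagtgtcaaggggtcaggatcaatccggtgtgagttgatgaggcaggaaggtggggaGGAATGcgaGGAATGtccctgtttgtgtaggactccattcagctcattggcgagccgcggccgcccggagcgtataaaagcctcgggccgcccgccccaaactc
ANKRD1: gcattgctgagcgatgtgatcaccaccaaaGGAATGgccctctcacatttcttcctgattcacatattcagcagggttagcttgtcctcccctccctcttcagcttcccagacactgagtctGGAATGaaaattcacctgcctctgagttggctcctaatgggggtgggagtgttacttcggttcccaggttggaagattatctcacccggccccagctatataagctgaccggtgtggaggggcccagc
CTGF, named CCN2 in RefSeq, holds 3 matches and ANKRD1 holds 2. GGAATG occurs in 11.9% of 35116 windows of 250 bases, in at least 1 window of 9 of the 20 pathway genes with a window and in 14.3% of 27305 genes. As with the E-box, these matches are a description and were not tested as binding sites.

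Growth factor receptors divided between the lines. Of 43 genes 26 were tested, 10 at least 2-fold higher in DU145DR and 7 in 22Rv1DR, with a median of -0.60. EGFR stood at 38.0 and 37.0 against 4.29 and 4.43 FPKM, MET, the receptor of HGF, at 18.7 and 19.5 against 3.81 and 3.70 FPKM, FGFR1 at 58.8 and 56.3 against 3.84 and 3.57 FPKM and EPHA2 at 67.3 and 62.7 against 11.6 and 11.8 FPKM. In 22Rv1DR, FGFR3 stood at 20.8 and 20.5 FPKM against 2.72 and 2.46 FPKM in DU145DR, ERBB3 at 8.84 and 8.90 against 2.98 and 3.39 FPKM, and NTRK2 at 3.88 and 4.00 FPKM against 0. Among the ligands, TGFA was higher in DU145DR (6.0 and 6.4 against 1.02 and 1.09 FPKM) and AREG was seen in 22Rv1DR alone (4.27 and 4.15 FPKM). HGF was also seen in 22Rv1DR alone, at 17.9 and 14.9 FPKM, while its receptor was higher in DU145DR.

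Cytokines and genes of the NF-kB pathway were higher in DU145DR. Of 34 genes 21 were tested, 15 at least 2-fold higher in DU145DR and 0 in 22Rv1DR, with a median of -2.19. IL32 (49.5 and 51.0 FPKM), IL18 (23.7 and 23.1 FPKM), IL11 (17.7 and 17.8 FPKM), LIF (16.2 and 15.2 FPKM), CXCL8 (8.80 and 9.57 FPKM) and CXCL2 (4.32 and 4.80 FPKM) were all at 0 in 22Rv1DR. So was the NF-kB subunit RELB, at 23.6 and 23.6 FPKM in DU145DR. NFKB1, NFKB2 and the inhibitor NFKBIA were present in both lines, with log2 differences of -2.21, -1.45 and -2.70. IL6 was at 0 in all 8 samples. CXCL16 was higher in 22Rv1DR by 0.73 ± 0.04 on the log2 scale (adjusted p = 2.82e-05).

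Interferon-related genes separated into 2 sets. Of 42 genes 32 were tested, with 9 at least 2-fold higher in each line and a median of 0.44. The set that was higher in DU145DR held antigen presentation genes. HLA-B stood at 11.3 and 12.4 against 2.89 and 2.70 FPKM, HLA-C at 46.4 and 42.9 against 1.501 and 1.692 FPKM and B2M, the shared light chain, at 593 and 613 against 254 and 239 FPKM. Class I genes are nearly alike and vary between people, so the reads counted for each depend on how well a line's alleles match the reference, which was not tested. The loading genes TAPBP and TAP1 had log2 differences of -2.16 and -1.02, and the factor IRF1 stood at 6.24 and 5.86 FPKM against 0. HLA-E did not pass the test (3.14 and 2.96 against 2.95 and 3.06 FPKM), but did with quantile normalization (adjusted p = 0.0139). When symbols on several lines of the table were left out, the set higher in DU145DR fell to 3 of 24 tested.

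The set that was higher in 22Rv1DR held antiviral effectors. ISG15, a ubiquitin-like protein, stood at 8.40, 7.33, 6.92 and 7.12 FPKM against 168, 166, 178 and 182 FPKM (4.54 ± 0.07, adjusted p = 2.89e-07). The membrane proteins IFITM1, IFITM2 and IFITM3, which are close copies, stood at means of 25.2, 137 and 119 FPKM in 22Rv1DR, with IFITM2 at 1.35 and 1.66 FPKM in DU145DR and the other pair at 0. OASL (11.1 and 12.3 FPKM) and the factor IRF7 (7.92 and 8.68 FPKM) were seen in 22Rv1DR alone. JAK1 was low in 22Rv1DR as given above.

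The upstream sequences of ISG15 (chr1:1013247-1013496, plus strand) and IFITM3 (chr11:320861-321110, minus strand) are shown from RefSeq, GRCh38.p14, because the interferon-stimulated response element is well known there. Capitals mark GAAA followed, after any 2 bases, by another GAAA, searched on both strands.
ISG15: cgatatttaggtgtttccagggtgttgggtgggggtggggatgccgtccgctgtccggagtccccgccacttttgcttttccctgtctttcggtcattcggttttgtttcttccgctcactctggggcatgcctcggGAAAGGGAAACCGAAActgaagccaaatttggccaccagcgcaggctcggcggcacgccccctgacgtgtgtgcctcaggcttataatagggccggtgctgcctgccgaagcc
IFITM3: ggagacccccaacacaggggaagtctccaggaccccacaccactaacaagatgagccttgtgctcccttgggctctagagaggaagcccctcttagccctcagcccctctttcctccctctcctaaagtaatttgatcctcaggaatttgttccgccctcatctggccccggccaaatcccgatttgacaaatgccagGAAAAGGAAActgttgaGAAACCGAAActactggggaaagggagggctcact
Each window holds 2 matches, which overlap in ISG15. These letters occur in 3.02% of 35116 windows, in at least 1 window of 20 of the 32 interferon and class I genes with a window and in 3.71% of 27305 genes. That list holds genes higher in either line, and the share was not compared between them. Here too the matches were not tested as binding sites.

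Of genes tied to drug transport and tubulin, 28 of 36 were tested, 5 at least 2-fold higher in DU145DR and 4 in 22Rv1DR, and the median was -0.13 (0.035 with median centring). ABCB1 was far above the other pump genes in both lines. Its samples stood at 677, 672, 691 and 684 FPKM in DU145DR and at 128, 130, 127 and 127 FPKM in 22Rv1DR, a log2 difference of -2.41 ± 0.03 (SE, adjusted p = 1.96e-07). The groups did not overlap, and ABCB1 was present at over 100 FPKM in all 8 samples. ABCB4, its close paralog, stood at 18.2 and 18.2 against 1.08 and 1.05 FPKM. ABCC3 was also higher in DU145DR, at 17.1 and 16.3 against 4.34 and 4.38 FPKM, and ABCG2 was seen at 2.06 and 2.08 FPKM in 22Rv1DR alone. The tubulin isotype TUBB3, often named with taxane resistance, did not pass the test (98.8 and 88.2 against 99.4 and 99.5 FPKM, adjusted p = 0.197). TUBB6 stood at 135 and 120 against 68.0 and 65.7 FPKM, with its call lost without 4A or without 5A (largest adjusted p = 0.0579). STMN3, a stathmin that binds free tubulin, stood at 6.07 and 5.54 against 107 and 112 FPKM, and the microtubule proteins MAPT and MAP2 were higher in 22Rv1DR by 1.14 and 1.65 on the log2 scale.

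The neighbours of ABCB1 were also higher in DU145DR. In RefSeq gene order (GRCh38.p14), the 9-gene window of chromosome 7 from KIAA1324L to DBF4 had the lowest median of all windows of 9 tested protein-coding genes, -2.86 (-2.845 without KIAA1324L and TMEM243, whose samples are given below), and 7 of its 9 genes were at least 2-fold higher in DU145DR, TMEM243 among them. This window was singled out after its values were seen. DMTF1 stood at 157 and 156 against 19.5 and 21.7 FPKM, CROT, a peroxisomal enzyme, at 104 and 106 against 14.5 and 14.8 FPKM, SLC25A40 at 40.6 and 38.7 against 10.7 and 9.99 FPKM, DBF4, an activator of replication, at 239 and 253 against 12.7 and 11.4 FPKM, and ADAM22 just beyond the window at 33.5 and 32.3 against 7.59 and 7.08 FPKM. TMEM243 stood at 1092, 1086, 1139 and 1138 FPKM in DU145DR and at 15, 10.3, 0 and 0 FPKM in 22Rv1DR. KIAA1324L stood at 254, 0, 260 and 259 FPKM against 8.87, 8.84, 8.82 and 8.92 FPKM, and no difference is given for either gene because samples of a line split between 0 and a high value. RUNDC3B, inside the stretch, ran the other way at 0 against 7.82 and 7.68 FPKM. Beyond ADAM22 the tested genes up to CLDN12 were higher in 22Rv1DR: SRI stood at 33.1 and 31.1 against 64.4 and 67.5 FPKM, STEAP1 at 5.07 and 5.56 against 19.1 and 18.8 FPKM and CLDN12 at 6.05 and 6.13 against 23.1 and 21.8 FPKM. On the other side, GRM3, directly before KIAA1324L, was higher in DU145DR at 1.40 and 1.65 FPKM against 0. Its call was lost without 4A or without 5A. The tested genes before it, SEMA3D, SEMA3E, PCLO, CACNA2D1 and HGF, were at least 2-fold higher in 22Rv1DR. SEMA3C, beyond these, was at least 2-fold higher in DU145DR. Levels relative to those of the parental lines were not analysed here, and a difference in gene copies was not measured.

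**Figure D3:**
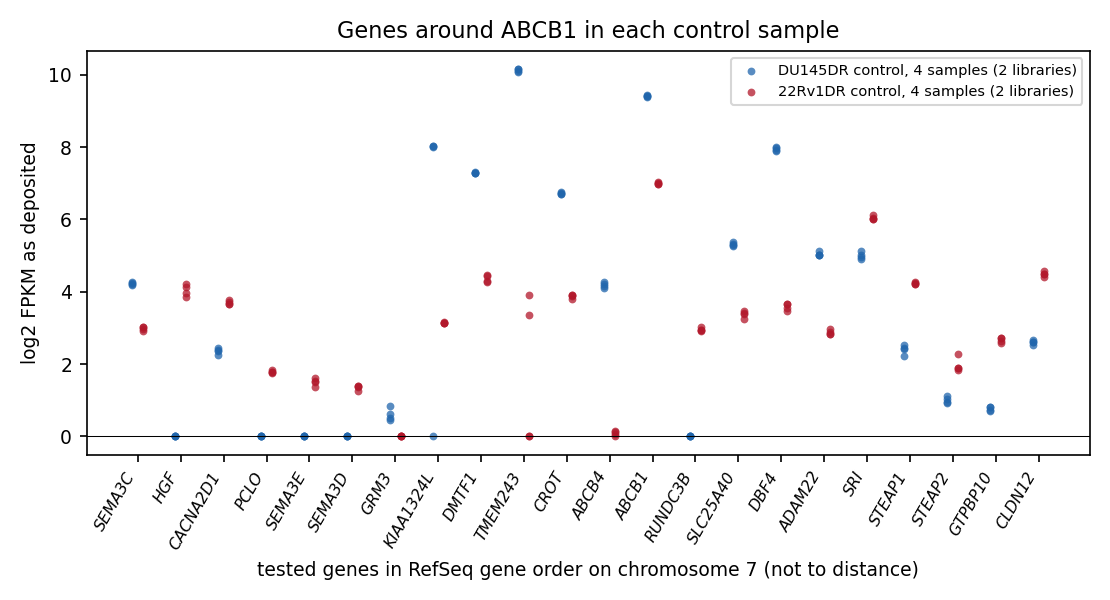
Deposited log2 FPKM of the tested genes around ABCB1 in RefSeq order on chromosome 7 (x axis, equal steps), with 4 DU145DR (blue) and 4 22Rv1DR (red) control samples each; 0 marks a value listed at 0. Blue lies above red from KIAA1324L to ADAM22 except at RUNDC3B and in 1 sample of KIAA1324L, and red lies above blue from SRI onwards.

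Detoxification genes were divided evenly, with 33 of 37 tested, 12 at least 2-fold higher in each line and a median of -0.15 (0.02 with median centring). Genes of the NRF2 response higher in DU145DR were the following. NQO1 stood at 222 and 224 against 30.9 and 30.8 FPKM, TXNRD1 at 582 and 612 against 160 and 157 FPKM, HMOX1 at 110 and 104 against 7.51 and 7.07 FPKM, SLC7A11, the cystine importer, at 51.8 and 55.1 against 9.04 and 8.40 FPKM, and NFE2L2, which encodes NRF2 itself, at 43.2 and 42.5 against 13.9 and 13.9 FPKM. AKR1B1 stood at 115 and 115 FPKM, with 1 of the 4 22Rv1DR samples above the floor. Higher in 22Rv1DR beside ALDH1A1 were ALDH3A2 (64.6 and 64.1 against 304 and 300 FPKM), CAT, or catalase (14.7 and 14.5 against 57.4 and 58.2 FPKM), MGST1 (129 and 132 against 376 and 361 FPKM) and GSTA1 (0 against 20.7 and 19.7 FPKM).

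Mismatch repair and tumour suppressor genes leaned towards DU145DR. Of 36 genes 35 were tested, 13 at least 2-fold higher in DU145DR and 6 in 22Rv1DR, with a median of -0.52. The repair gene MSH6 stood at 49.2 and 46.7 against 15.3 and 15.4 FPKM. RB1 stood at 22.7 and 23.9 against 9.98 and 9.36 FPKM and CDKN2A at 126 and 132 against 53.1 and 51.2 FPKM. These are transcript levels and say nothing of the protein or of mutations. STK11, or LKB1, was higher in 22Rv1DR at 8.95 and 8.23 against 30.1 and 29.8 FPKM. TSC2 did not pass the test (adjusted p = 0.0806), but did without 2A (adjusted p = 0.0137). RBL2 did not pass it (adjusted p = 0.131), but did with quantile normalization, with median centring and without 1A (largest adjusted p = 0.0133).

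Genes of cell cycle arrest and cell death differed in both directions. CDKN1A, or p21, stood at 15.5 and 14.5 against 71.4 and 75.5 FPKM, MDM2 at 8.76 and 9.02 against 25.7 and 24.7 FPKM and BBC3 at 2.94 and 2.75 against 17.9 and 20.5 FPKM, all higher in 22Rv1DR. PLK2 (23.1 and 23.4 against 2.95 and 2.69 FPKM) and GADD45B (49.4 and 48.1 against 10.7 and 11.4 FPKM) were higher in DU145DR. Of 43 cell cycle and replication genes 42 were tested, 8 at least 2-fold higher in DU145DR (5 with median centring) and 3 in 22Rv1DR, with a median of -0.33. Of those tested, 26.2% were at least 2-fold higher in either line, against 38.3% of all autosomal symbols tested. Of replication genes, TYMS stood at 279 and 276 against 69.4 and 65.2 FPKM and MCM3 at 109 and 103 against 32.7 and 32.7 FPKM. MCM6 (66.4 and 65.7 against 22.3 and 22.3 FPKM) and MKI67 (40.1 and 41.3 against 16.7 and 17.4 FPKM) were likewise higher in DU145DR. PCNA (167.3 and 196 against 205.2 and 194.5 FPKM) and RRM1 (67.7 and 67.9 against 66.3 and 64.1 FPKM) did not pass the test. CCND1, or cyclin D1 (88.3 and 83.3 against 532 and 512 FPKM), its kinase partner CDK6 (1.66 and 1.69 against 17.9 and 16.9 FPKM) and AURKB (69.5 and 64.8 against 234 and 248 FPKM) were the 3 higher in 22Rv1DR.

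Developmental signalling pathways held differences in both directions. Of 40 Notch and Hedgehog genes 29 were tested, 9 at least 2-fold higher in 22Rv1DR and 7 in DU145DR, with a median of -0.20. NOTCH2 stood at 19.27 and 18.97 against 4.38 and 4.33 FPKM, whereas the Notch effector HES1 stood at 3.45 and 3.58 against 17.8 and 16.8 FPKM. The Hedgehog receptor component SMO (13.5 and 12.5 FPKM) and GLI3 (2.83 and 2.50 FPKM) were at 0 in 22Rv1DR. So was GLI2, which was close to the floor in DU145DR (1.38 and 1.41 FPKM) and did not meet the 2-fold call. The ligand DHH was at 0 in DU145DR (4.96 and 5.35 FPKM in 22Rv1DR). Of 43 WNT genes 28 were tested, 11 at least 2-fold higher in 22Rv1DR and 8 in DU145DR, with a median of -0.01. DKK1, a secreted WNT inhibitor, stood at 37.8 and 37.7 FPKM against 0, the receptor FZD6 at 51.8 and 52.3 against 10.2 and 9.91 FPKM and LGR4 at 1.61 and 1.49 against 8.79 and 8.16 FPKM. Of 39 TGF-beta and BMP genes 34 were tested, 9 at least 2-fold higher in DU145DR and 5 in 22Rv1DR, with a median of -0.30. TGFB1 stood at 70.9 and 66.8 against 10.3 and 10.0 FPKM, and its receptors TGFBR1 (10.2 and 10.4 FPKM against 0) and TGFBR2 (9.87 and 9.42 against 1.54 and 1.35 FPKM) were also higher in DU145DR.

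Neuroendocrine and neuronal genes were found in both lines. Of 33 listed, 23 were tested, 11 at least 2-fold higher in 22Rv1DR and 5 in DU145DR, with a median of 0.73. Of the tested genes, 8 were seen in 22Rv1DR alone and 6 in DU145DR alone, and TUBB3 did not pass the test. In 22Rv1DR, DDC, which makes dopamine and serotonin, stood at 37.4 and 37.9 FPKM, the neural splicing factor SRRM4 at 28.7 and 29.2 FPKM, the granule proteins SCG3 and CHGB at 29.5 and 27.1 and at 25.8 and 24.4 FPKM, SYT4 at 20.4 and 19.6 FPKM and the heavy neurofilament NEFH at 17.5 and 17.7 FPKM, all listed at 0 in DU145DR. DU145DR had UCHL1, the adhesion protein NCAM1 (9.79 and 9.48 FPKM) and the light neurofilament NEFL (9.59 and 8.66 FPKM), all listed at 0 in 22Rv1DR. Of 27 imprinted genes 14 were tested, 5 at least 2-fold higher in 22Rv1DR and 1 in DU145DR, with a median of 0.17. PEG10 stood apart from its neighbour SGCE, which did not pass the test (32.4 and 34.2 against 35.0 and 34.5 FPKM). SGCE did pass with quantile normalization and with median centring (largest adjusted p = 0.00559). IGF2 stood at 2.908 and 3.004 FPKM in DU145DR and near the floor in 22Rv1DR, a call that was lost with log2(FPKM + 0.1) (adjusted p = 0.110). Of 20 globin and red cell genes 8 were tested, 5 at least 2-fold higher in 22Rv1DR and 2 in DU145DR, with a median of 1.27. Beside the alpha globins, HBQ1 (22.1 and 24.0 FPKM) and the embryonic HBE1 (2.67 and 3.02 FPKM) were seen in 22Rv1DR alone, and 12 genes of the list were at 0 in all 8 samples. Ferritin light chain, FTL, stood at 1895 and 1973 against 322.7 and 324.2 FPKM.

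Of 39 cholesterol and fatty acid genes 38 were tested, 6 at least 2-fold higher in each line, with a median of 0.11. Of the sterol enzymes, SQLE was higher in DU145DR at 52.1 and 49.8 against 14.4 and 14.3 FPKM, while CYP51A1 was higher in 22Rv1DR at 16.5 and 17.0 against 57.1 and 55.1 FPKM and TM7SF2 at 7.04 and 6.59 against 45.5 and 47.4 FPKM. The desaturase FADS2 (29.3 and 30.1 FPKM in DU145DR) was at 0 in 22Rv1DR. All 74 ribosomal protein genes were tested, 31 at least 2-fold higher in 22Rv1DR and 0 in DU145DR, with a median of 0.87; after quantile normalization these counts were 19 and 3 and the median was 0.42. They held 8.28% to 8.76% of the summed FPKM of all symbols, autosomal or not, in DU145DR samples. In 22Rv1DR samples they held 14.57% to 14.87%. RPS21 stood at 319.9 and 346 against 2436 and 2427 FPKM and RPL31 at 165.8 and 178.7 against 1274 and 1251 FPKM, but RPL30 was higher in DU145DR at 1761 and 1800 against 1106 and 1076 FPKM. Many of these genes have processed copies, so single values are uncertain. Of 18 housekeeping genes 1 was at least 2-fold higher in each line, with a median of 0.09 that became -0.54 with quantile normalization. GAPDH, the glycolytic enzyme used as a reference, stood at 609.7 and 611.7 against 3185 and 3344 FPKM.

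Markers of stromal, endothelial and blood cells were mostly at 0. Of 27 listed, 23 were at 0 in all 8 samples and 4 were tested, of which 2 were at least 2-fold higher in 22Rv1DR and 1 in DU145DR. The 2 were LUM, a matrix proteoglycan of fibroblasts (0 against 42.6 and 42.6 FPKM), and ALB, given above; the 1 was CD68, a lysosomal protein (15.7 and 15.4 against 1.61 and 1.88 FPKM). The summed level of the list was 17.3 to 18.0 FPKM in DU145DR samples and 71.6 to 75.2 FPKM in 22Rv1DR samples. PTPRC, PECAM1 and VWF, which define blood and endothelial cells, were at 0 in all 8.

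**Figure D4:**
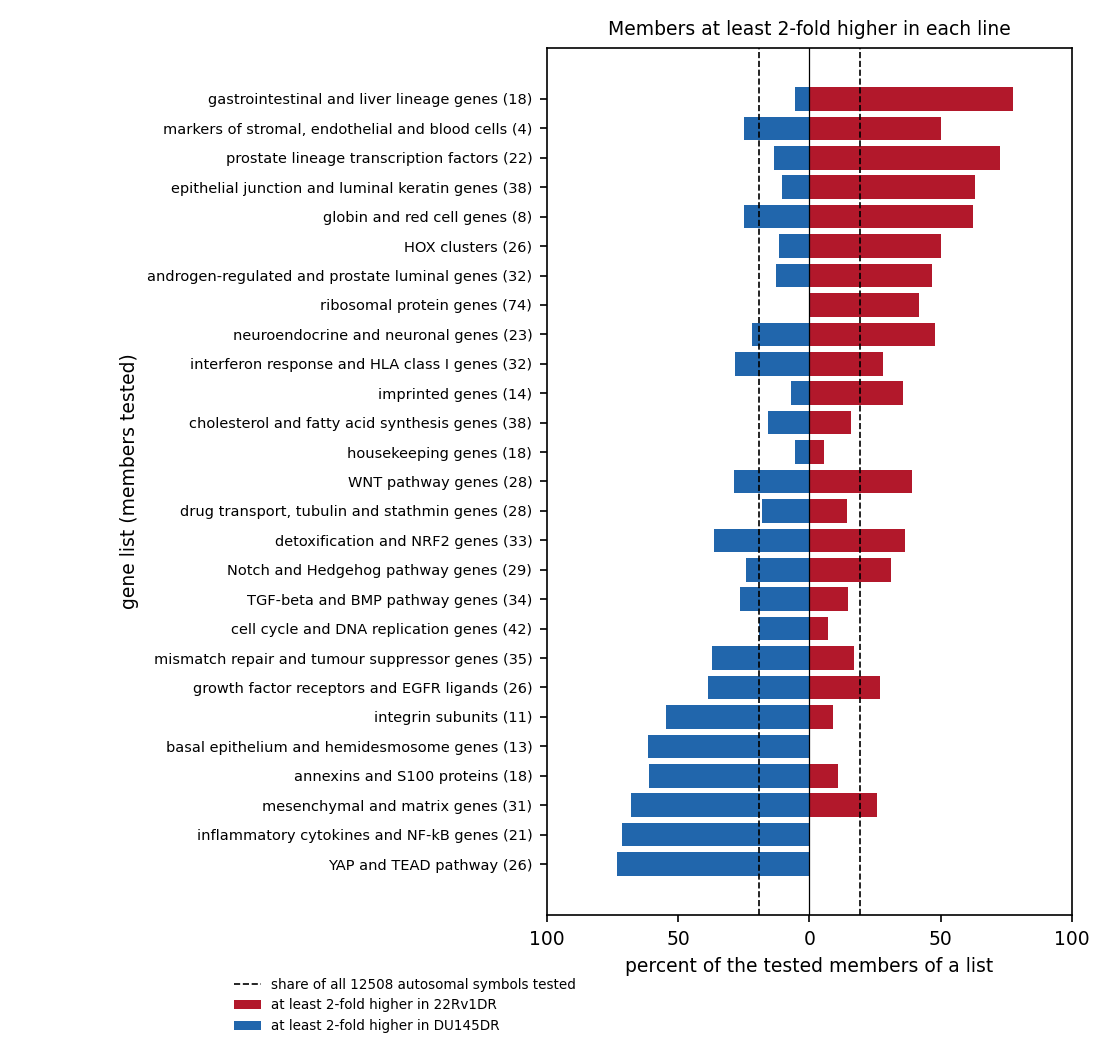
For gene lists (members tested in parentheses), the percent of tested members called at least 2-fold higher in 22Rv1DR (red, right) and in DU145DR (blue, left), in order of the median log2 difference. Dashed lines mark 19.2% and 19.1% of all 12508 autosomal symbols; the gastrointestinal list is at the top and the YAP and TEAD list at the bottom.

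The differences were unevenly spread over the 22 autosomes. On chromosome 12 the median log2 difference over 676 tested symbols was 0.67, 79.29% of symbols were higher in 22Rv1DR by any amount, and 38.9% were at least 2-fold higher there against 6.36% in DU145DR. Chromosome 7 followed with a median of 0.48, in spite of the stretch around ABCB1. Symbols of chromosome 18 (-0.79), 10 (-0.68), 8 (-0.55), 9 (-0.44), 2 (-0.44) and 3 (-0.30) had medians towards DU145DR, and on chromosome 18 40.8% of 191 symbols were at least 2-fold higher in DU145DR. The 4 pairs of libraries gave close medians for each of these. Over symbols above the floor in all 8 samples the medians were 0.65 for chromosome 12 and -0.86 for chromosome 18. Median centring moved the median of all symbols by 0.17, which leaves 0.84 for chromosome 12, 0.65 for 7, -0.62 for 18 and -0.51 for 10. The number of copies of each chromosome was not measured here.

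**Figure D5:**
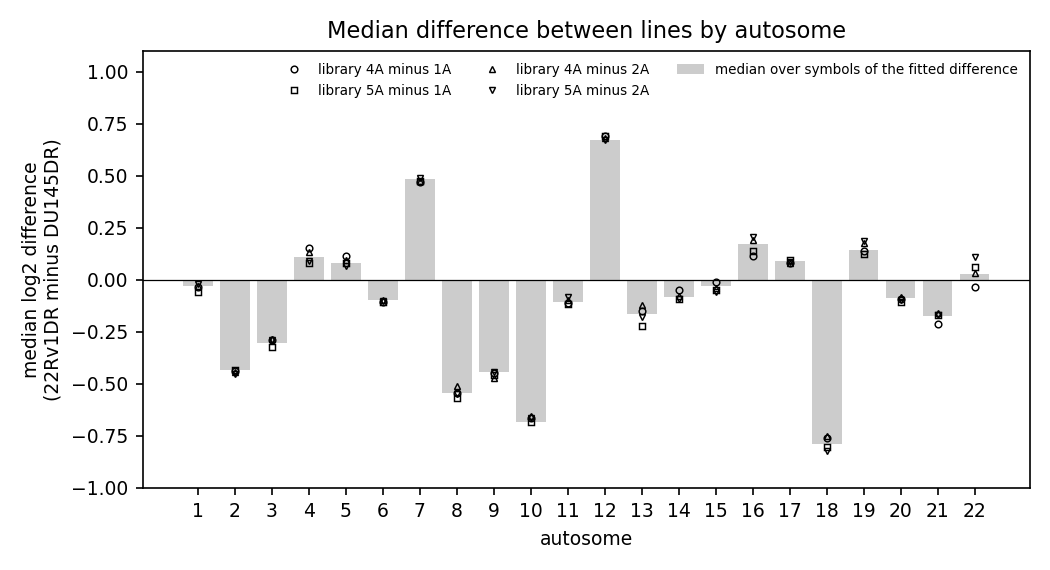
Median log2 difference (22Rv1DR minus DU145DR) of the tested symbols of each autosome (bars), with the same median for each of the 4 pairs of 1 library per line (symbols). The 4 symbols lie close to the bar on chromosomes 12 and 18, at 0.67 and -0.79.

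Other runs of neighbouring genes were found by the same 9-gene windows and were likewise chosen after their values were seen. The highest median, 3.91, belonged to the window of chromosome 11 that holds the 3 IFITM genes, SIGIRR, ANO9 and PKP3, with 6 of 9 genes at least 2-fold higher in 22Rv1DR. A second window on chromosome 11, from MAPK8IP1 to HARBI1, had a median of 3.04. Windows on chromosomes 16 and 6 followed with medians of 2.968 and 2.855, and the UGT2B cluster on chromosome 4 had a median of 2.71. That cluster encodes enzymes that inactivate steroids; UGT2B15 stood at 46.7 and 44.7 FPKM, UGT2B17 at 9.46 and 10.8 FPKM and UGT2B7 at 6.84 and 6.28 FPKM in 22Rv1DR, all at 0 in DU145DR, and its members are close copies. In the other direction, a window on chromosome 8 from E2F5 to OSGIN2 had a median of -2.363, with 7 of 9 genes at least 2-fold higher in DU145DR. On chromosome 2 the window from PRKCE to TTC7A had all 9 genes at least 2-fold higher in DU145DR and a median of -2.347. It includes EPAS1, the hypoxia factor HIF-2 alpha (55.6 and 52.3 against 4.07 and 4.33 FPKM), and lies next to CALM2 and MSH6, which ran the same way. EPCAM, close to CALM2, ran the other way.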

How the data were processed

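RNA from 4 DU145DR and 4 22Rv1DR control samples was poly(A)-selected and made into unstranded TruSeq libraries, per the labels' protocols. Reads were aligned with TopHat and quantified with Cufflinks on hg19, per the submitters' processing notes, which also name mm10; versions are not given in the sources used here. The values deposited by the authors are log2 FPKM per gene symbol, with values of 1 FPKM or less set to 0; all values above 0 are 6-digit numbers as powers of 2. No counts or depths are in the table, so precision rests on the libraries alone.

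The 2 lanes of a library were averaged on the log2 scale. Of 25277 symbols, 605 had several lines, of which the one highest on average was used. Symbols were placed on chromosomes by GENCODE v29 or RefSeq (98.4% of those above the floor in a control sample); X, Y and unplaced symbols were left out after adjustment. Testing required that 2 or more of the 4 libraries had both lanes above the floor (13157 symbols, 12508 autosomal). Tests used limma 3.58.1 in R 4.3.3 with trend and robust options, 2 residual degrees of freedom and Benjamini-Hochberg adjustment over all symbols tested, at 0.05, 2-sided. The model was also run on simulated data. There only a few symbols differed and no value was set to the floor, so that run does not cover data like these. Members and the 28 gene lists were chosen with earlier results of these data known, and lists have counts and medians but no test. Results of 1 list and of some genes are not reported here. Named genes are the lines' markers and reference genes, the 15 largest differences each way among called genes of at least 5 FPKM, the 15 most abundant genes listed at 0 in the other line, the 10 most abundant per line, and up to 6 called and 2 uncalled genes per list; other genes were chosen after their values were seen. Genes with a sample of a line at 0 and another at a log2 value of 3 or more (35 in DU145DR, 20 in 22Rv1DR) get sample values only. Alternatives changed the filter, pseudocount, scaling, variance model, lanes, libraries and replicate block.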

Additional observations from a re-analysis of the deposited data

How the results depend on the processing

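The 4 counts of autosomal symbols kept within 1.5 times their value in every alternative. Over these, symbols at least 2-fold higher numbered 1745 to 2823 in 22Rv1DR and 1903 to 2494 in DU145DR, and those past the adjusted p alone 3961 to 6098 and 4408 to 5724. Leaving out 1 library, so that the lone library was assumed to vary like the other line's, gave 2254 to 2360 and 2293 to 2359 at least 2-fold. Median centring moved the median difference by 0.17 on the log2 scale and the share of 2-fold calls higher in 22Rv1DR from 50.1% to 59.6%. It turned the medians of the drug transport and tubulin list to 0.035, of the detoxification list to 0.017 and the difference of LSR to 0.12, and quantile normalization turned the housekeeping median to -0.54; the cause was not tested. The numbers of the libraries do not pair them: the deviations of libraries of the same order from their line means had a correlation of -0.03 across genes, and with a replicate block 2389 and 2377 symbols were at least 2-fold higher, 5367 and 5724 past the adjusted p; of the genes named, the block changed the calls of TSC2 and RNA5-8S5, which then passed.

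Of 254 called genes named in the text, 8 lost the call under an alternative. KLK3, HOXB9, SNAI1, TEAD4, TUBB6 and GRM3 lost it without a library, SNAI1 also with median centring, and IGF2 and ITGA1 with log2(FPKM + 0.1) (adjusted p = 0.110 and 0.145). Of those not called, 10 passed in an alternative, among them SLC45A3 and HOXC9 with median centring (adjusted p = 0.00403 and 0.00537) and TUBB3 with median centring or without 1A. No depth is known, so no counting interval can be given for values near the floor.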
